A study of Mus musculus with 10 samples.

Results

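Cd68, Clec10a, Cx3cr1, Lyz2 and Pira2 are 5 genes of monocytes and macrophages that were counted here in cultured mast cells. They are 5 of the 49671 gene rows of the count table, matched by Ensembl identifier. They were chosen by their counts in these same libraries, which differed strongly with stem cell factor (SCF) or transforming growth factor beta (TGF-β). Their changes with SCF and with TGF-β are therefore given as descriptions, with no test. A test is given for the contrast of the TGF-β doses, which the reason for the choice does not name. It uses some of the same libraries, so the choice may still bear on it. The lists of other genes below were also chosen with earlier results of these data known. Adjusted p-values of listed genes, and list counts set beside the share of all genes called, may reflect that choice. They are not read as independent support.

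Mast cells were cultured from the bone marrow of C57BL/6 mice, wild type in genotype, in interleukin 3 (IL-3). All 6 groups shared that culture: IL-3 alone (2 libraries), SCF at 100 ng/mL (2), SCF plus TGF-β at 1 ng/mL (2) or 10 ng/mL (2), and TGF-β without SCF at 1 ng/mL (1) or 10 ng/mL (1). Stimulation lasted 72 h. No time is given for the IL-3 group and no SCF dose for the combinations, IL-3 is given as both 5 and 10 ng/mL, and 6 to 8 weeks is given both as an age and as the length of culture. No label places the replicate libraries in separate mice or cultures, so SDs and p-values reflect the spread among these libraries alone, which may be technical. The 2 groups of TGF-β alone had no replicate, and their means over both doses are used below.

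SCF is the ligand of the receptor KIT, on which mast cells depend, and TGF-β steers cultured mast cells toward a mucosal type. Some of the 5 genes, such as Cd68, are widely used as labels of macrophages and monocytes, but the products of all 5 do general work of myeloid cells. CD68 is a heavily glycosylated membrane protein of endosomes and lysosomes, and lysozyme M, from Lyz2, cuts bacterial cell walls. CLEC10A is a C-type lectin that binds galactose and N-acetylgalactosamine, CX3CR1 is the receptor of the chemokine fractalkine (CX3CL1), and PIR-A2 is an activating paired immunoglobulin-like receptor that signals through the Fc receptor gamma chain (Fcer1g).

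The loci lie on 4 chromosomes (GENCODE vM21 on GRCm38), all protein coding. Cd68 (ENSMUSG00000018774) is at chr11:69664213-69666153 on the minus strand, and Clec10a (ENSMUSG00000000318) at chr11:70156197-70170834 on the plus strand. Cx3cr1 (ENSMUSG00000052336) is at chr9:119901616-120069879, Lyz2 (ENSMUSG00000069516) at chr10:117277331-117282321 and Pira2 (ENSMUSG00000089942) at chr7:3836812-3845051, all on the minus strand. Whether counting used strand is not given in the sources used here, and the Cx3cr1 annotation spans 168264 bp, with 9 other genes within or across it; of these Gm33858 alone shared exon bases with it (78 bases) and held 6 counts in all 10 libraries. Lyz1, the close copy of Lyz2 at 5.48 kb from it, and Mgl2, the close copy of Clec10a at 18.7 kb, had 0 counts in every library. Pira2 stands among near-identical receptor genes, so reads shared between copies make its counts the least certain of the 5.

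Promoter stretches of 3 genes are shown so that their letters can be set beside 3 patterns: Pira2 high with SCF and lower once TGF-β was added, Cd68 high with SCF at every TGF-β dose, and Lyz2 low with TGF-β. They come from the RefSeq table for GRCm38.p6, 5′ to 3′ on the minus strand. That table held windows of 250 bases before the start for 4 of the 5 genes, all but Clec10a. The stretch of Pira2 is chr7:3845052-3845251, that of Cd68 chr11:69666171-69666370 and that of Lyz2 chr10:117282322-117282521; each has the 200 bases nearest the start that no annotated exon covers, from -200 to -1 in Pira2 and Cd68 and, further upstream, from -249 to -50 in Lyz2. Capitals mark in Pira2 the purine-rich box GAGGAA, bound by the myeloid factor PU.1, or its reverse complement TTCCTC. In Cd68 they mark the AP-1 motif TGANTCA.
Pira2: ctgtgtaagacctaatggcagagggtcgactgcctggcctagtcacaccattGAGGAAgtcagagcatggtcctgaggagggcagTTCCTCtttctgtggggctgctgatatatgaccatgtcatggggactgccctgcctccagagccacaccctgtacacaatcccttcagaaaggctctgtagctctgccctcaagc
Cd68: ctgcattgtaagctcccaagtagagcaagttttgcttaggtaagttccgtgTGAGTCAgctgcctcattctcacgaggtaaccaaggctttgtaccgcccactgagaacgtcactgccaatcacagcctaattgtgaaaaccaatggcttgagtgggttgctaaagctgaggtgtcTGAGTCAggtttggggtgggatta
Lyz2: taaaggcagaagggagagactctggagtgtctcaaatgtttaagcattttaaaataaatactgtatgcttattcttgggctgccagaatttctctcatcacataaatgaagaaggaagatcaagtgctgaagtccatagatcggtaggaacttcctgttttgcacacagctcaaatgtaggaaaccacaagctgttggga
In the 250 bases, Pira2 held GAGGAA on its own strand at -213 and -148 and on the other strand at -115 from the start. Cd68 held TGAGTCA at -149 and -24, and GAGGAA at -225. On both strands 6 motifs were searched: the purine-rich box, AP-1, the E-boxes CATGTG and CACGTG, the GATA motif AGATAA and the SMAD palindrome GTCTAGAC. No match lay in the window of Lyz2 or in that of Cx3cr1. Only these exact letters were searched. The shorter GGAA, the end of the purine-rich box, does occur in the printed stretch of Lyz2, so no lack of PU.1 sites can be read from this. Matches are common: of 32851 windows of that length, 23.3% held the purine-rich box, 6.75% the AP-1 motif, 12.3% and 6.02% the first and the second E-box, 9.99% the GATA motif and 0.167% the palindrome.

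The libraries held 1237382 to 2323916 counts in genes. Levels are in CPM, counts scaled by effective library size, and 3 counts were worth 1.26 to 2.55 CPM. Intervals beside count ratios come from pooled counts and leave out the spread between libraries. PCR copies of a molecule are counted again where no molecular identifiers are used, so these intervals may be too narrow even for counting error. Of 16 mast cell identity genes all passed the filter on low counts, and they summed to 58830 to 100400 CPM; SCF alone had the highest sums (86610 and 100400 CPM, against 58830 to 74710 CPM elsewhere). Of 20 macrophage identity genes, by contrast, the sum was 17.3 to 31.9 CPM. C1qb, C1qc, Marco, Timd4 and Cd5l had 0 counts throughout, and Itgam, Mertk, Mrc1, C1qa, Trem2, Siglec1 and Vsig4 had 1 to 3 counts in all libraries together. The 3 that passed the filter were Csf1r (178 counts in all), Cd163 (86) and Adgre1 (64), and none was called in any of the 6 contrasts (edgeR quasi-likelihood test, adjusted p under 0.05; 0 of 18 had an unadjusted p under 0.05, by edgeR or DESeq2). In bulk RNA, fewer cells expressing a gene and less of it per cell cannot be told apart.

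**Figure D1:**
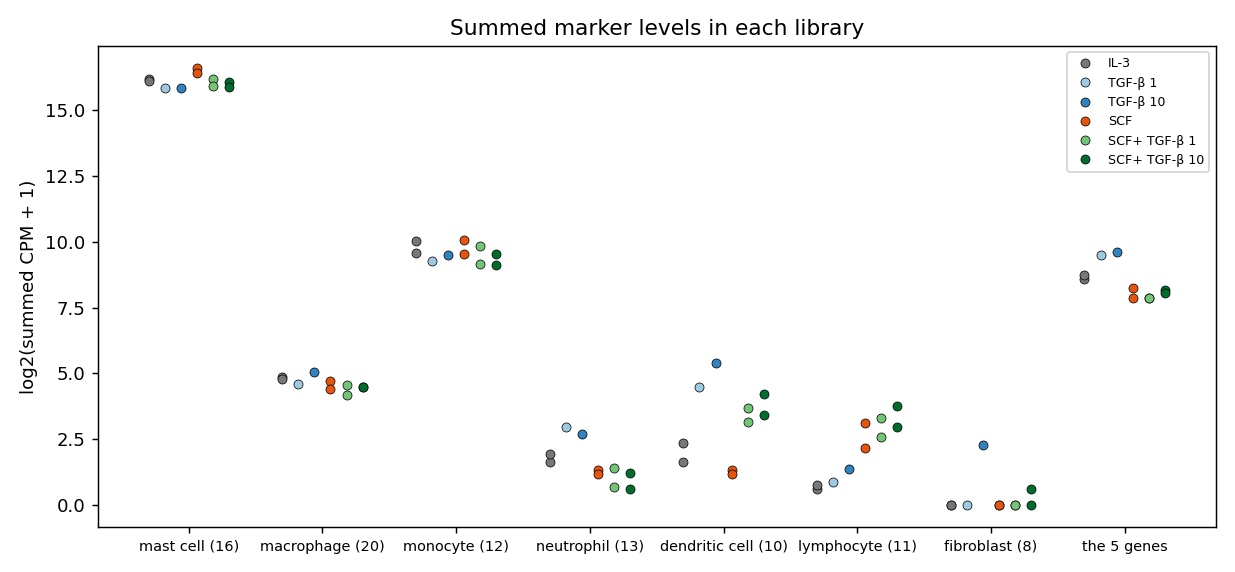
Summed CPM of marker lists in each library, as log2(sum + 1), with the number of genes in brackets; points are libraries, coloured by group. Mast cell identity genes sum to 58830 CPM or more in every library and macrophage identity genes to at most 31.9 CPM. The 5 genes together reach 230.9 to 784.1 CPM, and Cx3cr1 alone makes up 773.2 CPM of the highest of these sums.

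Cd68, the lysosomal membrane protein, was high in every library with SCF, whether or not TGF-β was added. In IL-3 its counts were 3 and 7 (1.56 and 4.91 CPM), and with TGF-β alone 11 at the lower and 7 at the higher dose (9.33 and 5.44 CPM). SCF libraries held 100 and 104 counts (50.1 and 65.5 CPM), those with 1 ng/mL TGF-β added 95 and 118 (40.0 and 70.0 CPM), and those with 10 ng/mL 79 and 136 (35.3 and 73.9 CPM). Every library with SCF stood above every library without it, and among the 6 libraries with SCF the 3 groups overlapped.

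For Cd68 the difference of SCF from IL-3 was 4.23 ± 0.52 on the log2 scale (18.7-fold; approximate SE, n = 2 libraries each), and SCF with TGF-β exceeded TGF-β alone by 2.91 ± 0.44. Adding TGF-β to SCF left a difference of -0.09 ± 0.32 at either dose. The group means with SCF were 57.8 ± 10.95 CPM (SD, n = 2), 55.0 ± 21.2 CPM with 1 ng/mL TGF-β and 54.6 ± 27.3 CPM with 10 ng/mL. In each of the 4 groups with a pair of libraries, Cd68 was higher in the library numbered 2, and in the group with 10 ng/mL TGF-β the gap (35.3 against 73.9 CPM) was wider than any difference between the means of the SCF groups. Without the IL-3 library numbered 1 or the one numbered 2, the difference of SCF from IL-3 was 3.53 or 5.15. TGF-β alone against IL-3 gave 1.23 ± 0.80, on 18 counts against 10, which became 0.52 or 2.13 without the one or the other IL-3 library.

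Of 15 genes for lysosomal and late endosomal membrane proteins besides Cd68, 12 passed the filter; 2 rose and 0 fell with SCF against IL-3 (9.17% of all genes were called), with a median change of 0.15 against -0.02 over all genes. Cd63, a tetraspanin of mast cell granules, rose by 0.55 ± 0.11 (adjusted p = 0.00662, edgeR; 0.0781 without the IL-3 library numbered 2), and Laptm5, a lysosomal membrane protein of blood cells, by 0.39 ± 0.11 (adjusted p = 0.0398; lost in 10 of 15 alternatives). Lamp1, the common lysosomal marker, was at 265.2 ± 3.85 CPM in IL-3 and 207.5 ± 139 CPM with SCF, not called there. It was lower with TGF-β alone than in IL-3 (-1.475 ± 0.347, adjusted p = 0.0245, edgeR). With SCF and TGF-β Lamp1 was higher than with TGF-β alone (1.01 ± 0.31, adjusted p = 0.0262, edgeR, where 24.7% of all genes were called). Each of these 2 calls of Lamp1 was lost in 5 of 15 alternatives. With TGF-β added to SCF, Cd63 rose and Laptm5 fell, each below 0.5 on the log2 scale at both doses (adjusted p = 0.0385 and 0.0321 at the lower dose, 0.0114 and 0.0199 at the higher; each call was lost in 3 to 7 of 15 alternatives). The genes beside Cd68 on chromosome 11, Eif4a1 at 0.783 kb and Mpdu1 at 1.57 kb, were not called in any of the 6 contrasts, with SCF changes of 0.36 ± 0.17 and 0.33 ± 0.20.

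**Figure D2:**
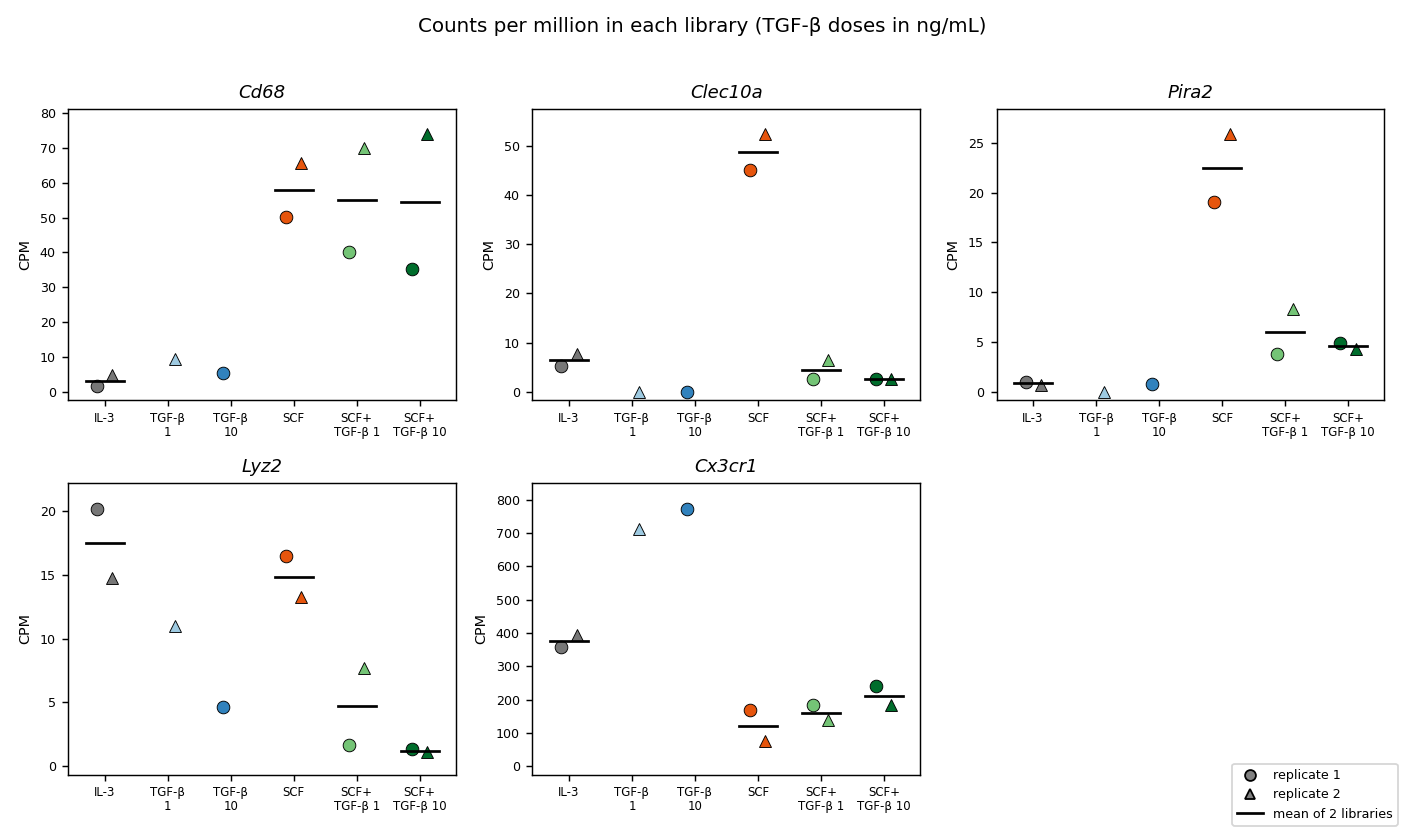
CPM of the 5 genes in each of the 10 libraries, by group on linear axes; circles are libraries numbered 1, triangles those numbered 2, and bars are means of 2 libraries (no bar where a group has 1). Cd68 is high in all 6 libraries with SCF, Clec10a and Pira2 are high only in the 2 with SCF and no TGF-β, and Cx3cr1 is highest in the 2 with TGF-β alone.

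Clec10a, the galactose-binding lectin, was high with SCF and low wherever TGF-β was present. Its counts were 10 and 11 in IL-3 (5.18 and 7.72 CPM) and 90 and 83 with SCF (45.1 and 52.3 CPM). With TGF-β added to SCF they were 6 and 11 at 1 ng/mL (2.53 and 6.53 CPM) and 6 and 5 at 10 ng/mL (2.68 and 2.71 CPM). They were 0 in both libraries of TGF-β alone, the shallowest in the series (1295048 and 1237382 counts in genes). There 0 counts allow up to 3.13 CPM at 1 ng/mL and 2.87 CPM at 10 ng/mL (upper 95% counting limits). The SCF libraries stood apart from all others, and with TGF-β added Clec10a was at the level of IL-3 or below it.

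In means, Clec10a went from 6.45 ± 1.79 CPM (SD, n = 2) in IL-3 to 48.7 ± 5.13 CPM with SCF, a change of 2.93 ± 0.37 on the log2 scale (7.63-fold). Against SCF it was 11.2-fold lower with 1 ng/mL TGF-β (-3.49 ± 0.38) and 17.6-fold lower with 10 ng/mL (-4.14 ± 0.41); both comparisons share the SCF libraries. Leaving out the SCF with 1 ng/mL library numbered 1 or 2 gave -2.87 or -4.23 at that dose. With TGF-β alone Clec10a had 0 counts against 21 in IL-3, at least 5.14-fold lower when 3 counts over the group are taken as the floor (at least 2.69-fold or 2.46-fold without the 1 ng/mL or the 10 ng/mL library). The 28 counts with SCF and TGF-β were at least 2.83-fold higher than that floor (at least 1.48-fold or 1.35-fold in the same way).

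Of 22 C-type lectin genes besides Clec10a, 15 had a count and 4 passed the filter. Clec2d, a ligand of natural killer receptors, fell with SCF (-1.75 ± 0.44 on the log2 scale, adjusted p = 0.0208, edgeR; 0.0914 with DESeq2, 0.196 without the IL-3 library numbered 2 and 0.173 without the SCF library numbered 2). None of the 4 was called with either dose of TGF-β added to SCF, at median changes of -0.08 and 0.30. Cd69, the early activation antigen of leukocytes, was the most abundant of the 4, at 385.5 ± 49.9 CPM in IL-3 and 460.0 ± 73.0 CPM with SCF. It was higher by 0.70 ± 0.15 with SCF and TGF-β than with TGF-β alone (adjusted p = 0.00282; 24.7% of all genes were called), a call lost without the 1 ng/mL library of TGF-β alone (0.0596). The others were low, Clec4d at 0.518 ± 0.733 CPM in IL-3 and 2.70 ± 1.14 CPM with SCF and Clec4n at 2.01 ± 2.12 and 5.15 ± 1.93 CPM.

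Pira2, the activating receptor, was near absent without SCF. It had 2 and 1 counts in IL-3 (1.04 and 0.702 CPM), 0 with 1 ng/mL TGF-β alone and 1 with 10 ng/mL. SCF libraries had 38 and 41 counts (19.0 and 25.8 CPM), SCF with 1 ng/mL TGF-β 9 and 14 (3.79 and 8.31 CPM) and SCF with 10 ng/mL 11 and 8 (4.92 and 4.34 CPM). The 2 SCF libraries were highest, the 4 with SCF and TGF-β lay between, and the 4 without SCF were lowest, with no overlap between these 3 levels.

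For Pira2 the 79 SCF counts against 3 in IL-3 gave a ratio of 24.6 per effective library size (95% counting interval 8.13 to 122). Against SCF alone it was 3.81-fold lower with 1 ng/mL TGF-β (-1.93 ± 0.43 on the log2 scale) and 4.74-fold lower with 10 ng/mL (-2.24 ± 0.44). Leaving out the SCF with 1 ng/mL library numbered 1 or 2 moved the value at 1 ng/mL to -1.40 or -2.53. SCF with TGF-β held 42 counts against 1 with TGF-β alone, a ratio of 12.7 (2.16 to 514), or 6.64 without the 1 ng/mL library of TGF-β alone. All 4 Pira2 values with SCF and TGF-β lay above both IL-3 values, whereas for Clec10a 3 of these 4 lay below both.

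The stretch of chromosome 7 from Pirb, the inhibitory partner of the PIR-A receptors, to Lilra6 holds 8 annotated genes besides Pira2, both ends included, and 5 of them passed the filter. Gm15448, next to Pira2 at 11.1 kb, had 4 and 1 counts in IL-3, 25 and 14 with SCF, 8 and 10 with 1 ng/mL TGF-β added and 4 and 5 with 10 ng/mL. Gm14548 had 1 and 1 counts in IL-3, 14 and 17 with SCF, and 6 and 5, then 2 and 2, with the 2 doses. In both genes, as in Pira2, the SCF libraries were the highest. In Gm15922, a polymorphic pseudogene of the stretch, they were not: it was at 5.70 and 9.83 CPM in IL-3 and at 8.51 and 17.0 CPM with SCF, which overlapped, and it was not called in any of the 6 contrasts. Reads without a unique alignment were not assigned to genes, so reads that fit several copies equally are missing from these counts. Uniquely aligned reads placed on a wrong copy cannot be told apart from separate transcription of each copy.

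The tested genes of that family and its signalling partners are a list of 23 genes besides Pira2, of which 14 were in the table and 10 passed the filter. With SCF 2 rose and 1 fell (9.17% of all genes were called in that contrast). Lilra6 rose by 2.02 ± 0.42 on the log2 scale (adjusted p = 0.00651, edgeR; 0.0583 with DESeq2, 0.0869 without the IL-3 library numbered 2 and 0.0839 without the SCF library numbered 2). Tyrobp, the DAP12 adaptor of activating myeloid receptors, rose from 372.7 ± 9.76 to 765.7 ± 28.7 CPM (1.04 ± 0.14, adjusted p = 0.000158). The inhibitory Pirb was at 283.0 ± 54.3 CPM in IL-3 and 381.5 ± 18.5 CPM with SCF and was not called (0.43 ± 0.15, adjusted p = 0.0843). Fcer1g, the gamma chain itself, was at 1011.0 ± 127 CPM in IL-3 and 1079.0 ± 123 CPM with SCF, and it was not called (0.09 ± 0.14, adjusted p = 0.732).

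With TGF-β added to SCF, 4 of these 10 genes fell at the lower dose, 5 fell at the higher, and 0 rose (4.64% and 8.37% of all genes were called); the list median was -0.43 and -0.50 on the log2 scale, against 0.0062 and -0.0005 over all genes. Lilra6 fell (-2.53 ± 0.43 and -2.76 ± 0.44, adjusted p = 0.00168 and 0.000568). Tyrobp (-1.37 ± 0.14 and -1.70 ± 0.14, adjusted p = 1.21e-05 and 6.38e-07) and Pirb (-0.90 ± 0.15 and -1.24 ± 0.15, adjusted p = 0.00159 and 5.41e-05) did as well. The calls of Lilra6, Tyrobp and Pirb held in all 15 alternatives of the analysis. Fcer1g fell at 10 ng/mL (-0.47 ± 0.14, adjusted p = 0.0454; lost in 7 of 15 alternatives). With TGF-β alone, Tyrobp (-0.66 ± 0.14, adjusted p = 0.0125) and Pirb (-0.61 ± 0.16, adjusted p = 0.04) fell where 3.48% of all genes were called, and the calls were lost in 3 and 4 of 15 alternatives, up to adjusted p = 0.166 for Tyrobp without the 10 ng/mL library.

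**Figure D3:**
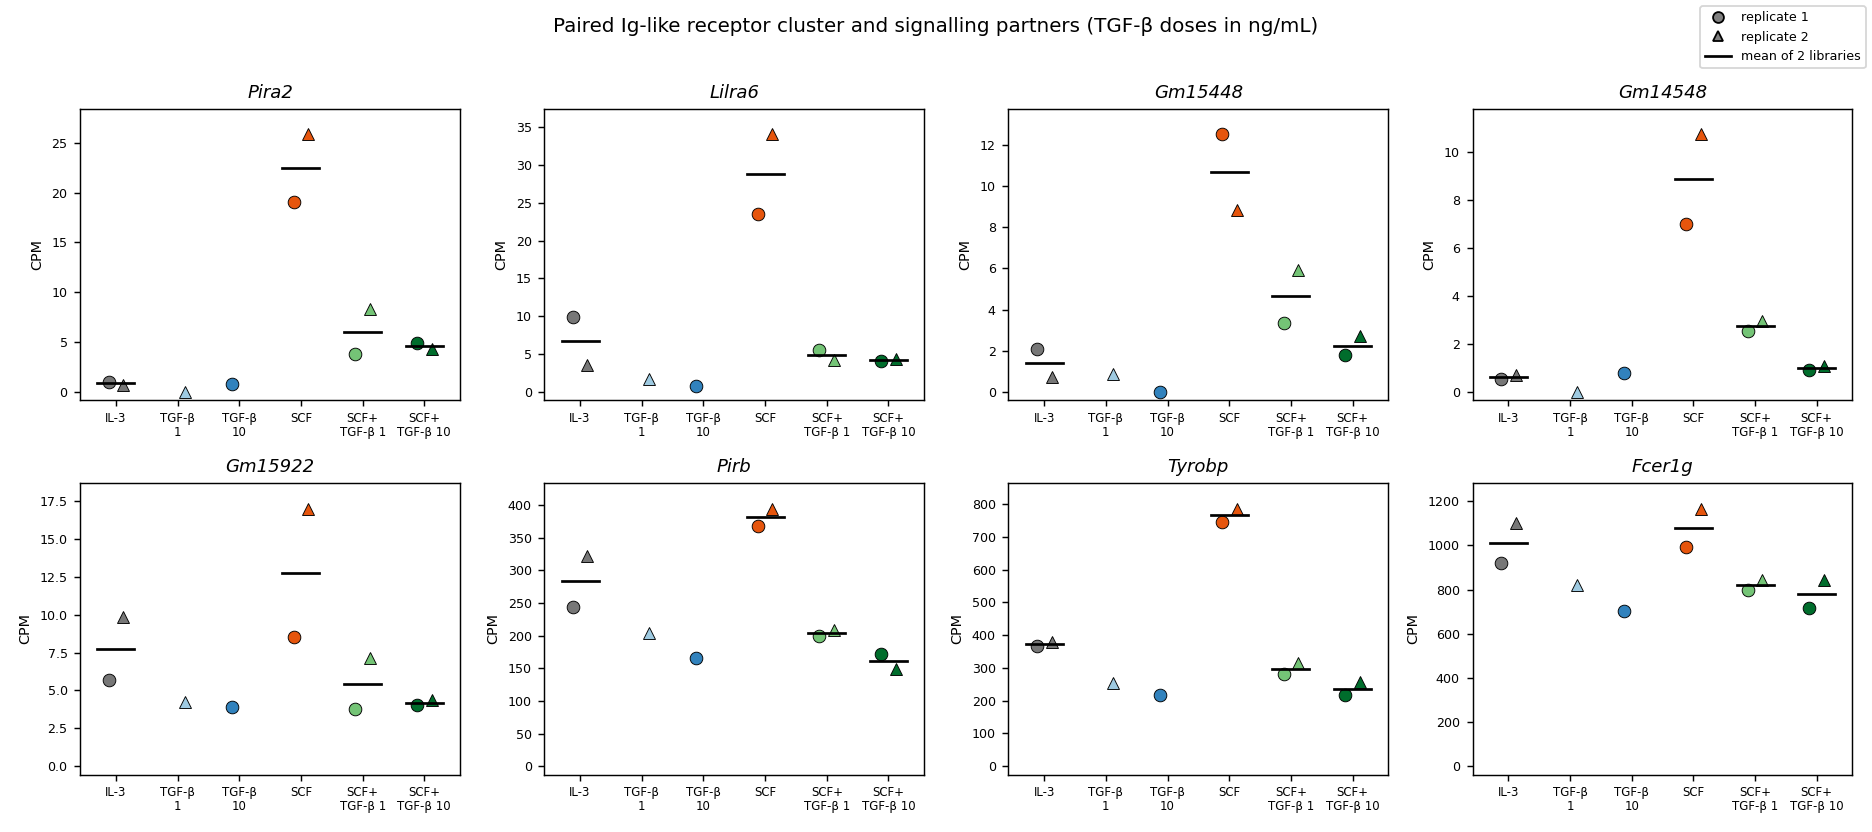
CPM of Pira2, of the 5 tested genes of its cluster (Lilra6, Gm15448, Gm14548, Gm15922, Pirb) and of Tyrobp and Fcer1g in each library, on linear axes; symbols are libraries numbered 1 or 2 and bars are means of 2 libraries. In Pira2, Lilra6, Gm15448, Gm14548, Pirb and Tyrobp both SCF libraries lie above all others, while Gm15922 and Fcer1g overlap between IL-3 and SCF.

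Lyz2, the secreted lysozyme of macrophages, was low wherever TGF-β was present and similar in IL-3 and SCF. Its counts were 39 and 21 in IL-3 (20.2 and 14.7 CPM) and 33 and 21 with SCF (16.5 and 13.2 CPM), which overlapped. TGF-β alone gave 13 counts at the lower and 6 at the higher dose (11.03 and 4.66 CPM). With SCF there were 4 and 13 at 1 ng/mL (1.68 and 7.71 CPM) and 3 and 2 at 10 ng/mL (1.34 and 1.09 CPM). All 6 libraries with TGF-β lay below all 4 without it, and the lowest were the 2 with SCF and 10 ng/mL, at or below the level of 3 counts.

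The Lyz2 difference between SCF and IL-3 was -0.24 ± 0.42 on the log2 scale. Against SCF it was 3.43-fold lower with 1 ng/mL TGF-β (-1.78 ± 0.51) and 11.6-fold lower with 10 ng/mL (-3.54 ± 0.64), and against IL-3 it was 2.45-fold lower with TGF-β alone (-1.29 ± 0.51; -0.68 without the 10 ng/mL library and -1.90 without the 1 ng/mL library). The value at 1 ng/mL was -0.94 without the SCF with 1 ng/mL library numbered 1 and -3.10 without the one numbered 2. SCF with TGF-β stood at -1.60 ± 0.61 against TGF-β alone, where the libraries overlapped, and at -0.99 or -2.22 without the 1 ng/mL or the 10 ng/mL library of TGF-β alone and -2.25 without the SCF with 1 ng/mL library numbered 2.

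Among 20 other genes of lysozymes and antimicrobial defence, 6 passed the filter. With SCF 3 rose and 1 fell, and with TGF-β added 1 fell at the lower dose and 3 at the higher, none rising (9.17%, 4.64% and 8.37% of all genes were called); the list medians were 0.44, -0.52 and -0.67 on the log2 scale. Ctsg, the granule protease cathepsin G, rose with SCF by 1.89 ± 0.25 (adjusted p = 0.00016, edgeR) and fell with TGF-β added (-1.64 ± 0.24 and -1.57 ± 0.23, adjusted p = 0.000384 and 0.000304), calls held in all 15 alternatives. Its course, up with SCF and down with TGF-β, was that of Clec10a and Pira2 and not that of Lyz2. Ncf4 and Cyba, subunits of the phagocyte oxidase, rose with SCF by 0.83 ± 0.19 and 0.50 ± 0.15 (adjusted p = 0.0111 and 0.0433) and fell with 10 ng/mL TGF-β (-0.67 ± 0.19 and -0.70 ± 0.15, adjusted p = 0.0321 and 0.00566). Each of these 4 calls was lost in 2 to 6 of 15 alternatives.

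Cx3cr1, the fractalkine receptor, was the most abundant of the 5 per kilobase of exon in IL-3; it was lower with SCF and higher with TGF-β alone. Its counts were 690 and 562 in IL-3 (357.6 and 394.4 CPM), 839 with 1 ng/mL TGF-β alone and 995 with 10 ng/mL (711.9 and 773.2 CPM). With SCF they were 336 and 119 (168.2 and 75.0 CPM), with 1 ng/mL TGF-β added 436 and 233 (183.6 and 138.3 CPM), and with 10 ng/mL 536 and 337 (239.5 and 183.0 CPM). The 6 libraries with SCF lay below the 2 with IL-3, and these below the 2 with TGF-β alone.

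Cx3cr1 was 3.05-fold lower with SCF than in IL-3 (-1.61 ± 0.25 on the log2 scale), and 4.01-fold lower with SCF and TGF-β than with TGF-β alone (-2.003 ± 0.20). With TGF-β alone it was 1.98-fold higher than in IL-3 (0.98 ± 0.24). Over SCF it was 0.39 ± 0.26 higher with 1 ng/mL TGF-β, where the libraries overlapped, and 0.78 ± 0.25 higher (1.72-fold) with 10 ng/mL, where they did not. The 2 SCF libraries of Cx3cr1 lay far apart (SD 65.9 CPM around a mean of 121.6 CPM). In every group with SCF the library numbered 1 was higher than the one numbered 2, while in IL-3 it was lower. Within each number, the libraries with SCF stood in the order of the TGF-β dose added. Without the SCF library numbered 1 the difference from IL-3 was -2.32 and the TGF-β differences 1.11 and 1.496, and without the one numbered 2 they were -1.15, -0.06 and 0.33.

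Its ligand and relatives were measured in the same libraries. Cx3cl1, the fractalkine gene, was at 1.76 ± 1.08 CPM with SCF, 3.71 ± 1.89 CPM with 1 ng/mL TGF-β added and 11.96 ± 0.785 CPM with 10 ng/mL (2.78 ± 0.64, adjusted p = 0.0107, edgeR; 0.142 without the SCF library numbered 1 and 0.0764 without the SCF with 10 ng/mL library numbered 1), and it had 0 counts in both libraries of TGF-β alone. Of 19 genes for chemokine receptors and this ligand, 6 passed the filter; with SCF 1 rose and 1 fell, with 1 ng/mL TGF-β added 2 fell, and with 10 ng/mL 1 rose and 2 fell (9.17%, 4.64% and 8.37% of all genes were called). Ccr1, a receptor of inflammatory CC chemokines, rose with SCF by 1.24 ± 0.19 (adjusted p = 0.00068), fell with TGF-β added to it (-1.31 ± 0.19 and -2.04 ± 0.20, adjusted p = 0.000376 and 4.76e-06), and fell with TGF-β alone (-1.85 ± 0.26, adjusted p = 0.000364). These Ccr1 calls held in all 15 alternatives. Scn11a, the neighbour of Cx3cr1 at 76.2 kb, was not called in any of the 6 contrasts on 37 counts in all.

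**Figure D4:**
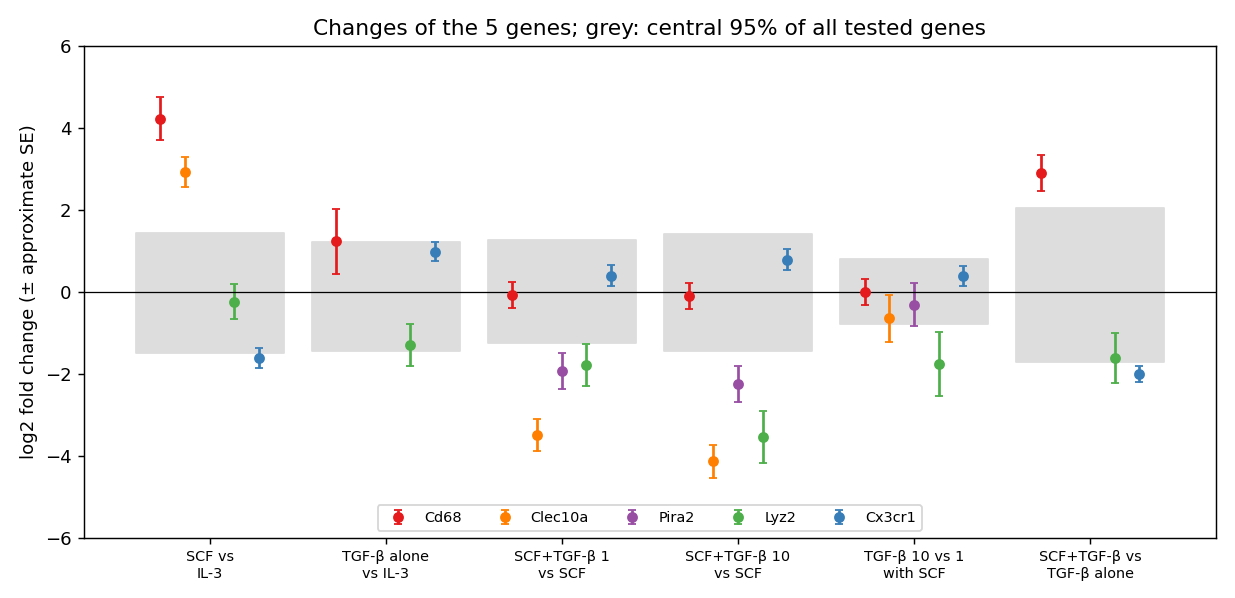
Log2 fold changes of the 5 genes with approximate SE in 6 contrasts; the grey boxes hold the central 95% of the 11247 genes tested. Values that rest on 3 counts or fewer in a group (Pira2 against IL-3, and Clec10a and Pira2 with TGF-β alone) are left out; Cd68 and Clec10a lie above the box for SCF, and Clec10a, Pira2 and Lyz2 lie below it with TGF-β added.

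The central 95% of the 11247 tested genes spanned -1.48 to 1.44 on the log2 scale for SCF against IL-3, -1.24 to 1.27 with 1 ng/mL TGF-β and -1.44 to 1.40 with 10 ng/mL, a description only because the genes were picked for such changes. Lyz2 with SCF, and Cd68 and Cx3cr1 with either dose of TGF-β added, lay within these spans, and the other values outside them. The libraries of both sides did not overlap for 4 of the 5 in SCF against IL-3 (53.4% of all genes), for 3 with 1 ng/mL TGF-β (44.6%), for 4 with 10 ng/mL (48.9%), for 4 in TGF-β alone against IL-3 (44.1%) and for 4 where SCF with TGF-β was set against TGF-β alone (47.4%). With groups this small such separation is common, and nothing is read from these counts.

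Between the doses of TGF-β with SCF, a contrast that the reason for the choice does not name, none of the 5 passed the test. Each had an adjusted p of 0.9999 (edgeR), where 0.0178% of all genes were called. DESeq2 also called 0 of 5. At an unadjusted p under 0.05 edgeR had 1 of 5 and DESeq2 0. Lyz2 was lower at 10 than at 1 ng/mL (-1.76 ± 0.78 on the log2 scale, unadjusted p = 0.0369; 0.0535 with DESeq2), on 5 counts against 17 (-0.44 without the SCF with 1 ng/mL library numbered 2 and -2.59 without the one numbered 1), and was the 1 gene of the 5 whose libraries did not overlap (30.5% of all genes). Cx3cr1 was higher by 0.39 ± 0.25 (unadjusted p = 0.134), Clec10a lower (-0.64 ± 0.57, unadjusted p = 0.277) and Pira2 lower (-0.31 ± 0.52, unadjusted p = 0.557). Cd68 differed by -0.005 ± 0.32 (unadjusted p = 0.988). These SEs, 0.25 to 0.78, set the size of a dose difference that 2 libraries a group could show, and the missed threshold does not show that the doses acted alike.

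The order of the 5 by level, per kilobase of exon, turned with SCF. In IL-3 Cx3cr1 had 83.5 CPM per kb, Lyz2 13.3, Cd68 2.57, Clec10a 2.23 and Pira2 0.251 (means of 2 libraries), and Cd68 and Clec10a overlapped. With SCF the order was Cd68 (46.0 CPM per kb), Cx3cr1 (27.0), Clec10a (16.8), Lyz2 (11.3) and Pira2 (6.48). There the libraries of Cx3cr1 (37.3 and 16.7) and Clec10a (15.5 and 18.0) overlapped. With SCF and 10 ng/mL TGF-β, Cx3cr1 (46.9) and Cd68 (43.4) stood far above Pira2 (1.34), Clec10a (0.931) and Lyz2 (0.922).

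Over the 10 libraries, the log2 CPM of Pira2 followed that of Cx3cr1 inversely (Pearson r = -0.913) and that of Clec10a (0.822) and Cd68 (0.797) directly, while Lyz2 and Pira2 were unrelated (0.00107). These r are descriptions over libraries that share groups and depth. Among 7146 genes searched, the closest to Cd68 were Tubb6, a tubulin (r = 0.977), Got2, a mitochondrial aminotransferase (0.971), and Yif1a (0.966), and Tubb6 went from 8.97 CPM in IL-3 to 53.0 CPM with SCF, and was at 55.1 CPM when 10 ng/mL TGF-β was added. Closest to Clec10a were Pkm, the glycolytic pyruvate kinase (0.979), Srgn, the proteoglycan core of mast cell granules (0.978), and Reep5 (0.975). For Pira2 they were Cmpk1 (0.981), the endoplasmic reticulum oxidase Ero1l (0.979) and Dpysl2 (0.969), for Cx3cr1 the lysosomal sulfatase Sgsh (0.980) and the interferon regulatory factor Irf2 (0.976), and for Lyz2 the receptor Gpr174 (0.956), Khk (0.940) and Pdxk (0.940). The granule gene Srgn went from 3050.0 CPM in IL-3 to 4947.0 CPM with SCF, and to 2370.0 CPM when 10 ng/mL TGF-β was added.

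Of 19 tested myeloid factors, 0 rose and 4 fell with SCF, 1 rose and 1 fell with 1 ng/mL TGF-β added, and 2 rose and 1 fell with 10 ng/mL (9.17%, 4.64% and 8.37% of all genes were called). Spi1, which encodes PU.1, was at 76.6 ± 8.14 CPM in IL-3 and 72.5 ± 21.4 CPM with SCF and was not called (-0.07 ± 0.23, adjusted p = 0.886, edgeR). Spi1 fell with TGF-β alone (-1.20 ± 0.27, adjusted p = 0.0179; 0.368 without the 10 ng/mL library and 0.146 without the IL-3 library numbered 1) and was higher by 1.55 ± 0.24 with SCF and TGF-β than with TGF-β alone (adjusted p = 0.000173; 24.7% of all genes were called). Id3, an inhibitor of helix-loop-helix factors and a known TGF-β family target, rose with 10 ng/mL TGF-β added to SCF by 2.68 ± 0.32 (adjusted p = 3.72e-05) and with TGF-β alone by 2.12 ± 0.30 (adjusted p = 0.000369). It was not called with 1 ng/mL added to SCF, but was called between the doses (1.93 ± 0.30, adjusted p = 0.0349, edgeR, lost in 6 of 15 alternatives). Id3 fell with SCF (-1.26 ± 0.34, adjusted p = 0.0283, edgeR, lost in 4 of 15 alternatives). It was lower with SCF and TGF-β than with TGF-β alone (-1.67 ± 0.24, adjusted p = 8.57e-05, edgeR).

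Of 9 tested phagocytic and scavenger genes, 2 rose and 1 fell with SCF, 1 rose and 3 fell with 1 ng/mL TGF-β added to SCF, and 1 rose and 4 fell with 10 ng/mL (9.17%, 4.64% and 8.37% of all genes were called). Itgb2, the beta chain of leukocyte integrins, fell (-1.63 ± 0.28 and -2.54 ± 0.31, adjusted p = 0.00206 and 4.37e-05, edgeR), as did Gas6, a bridging ligand for dying cells (-2.38 ± 0.32 and -2.66 ± 0.33, adjusted p = 0.000213 and 5.8e-05). The gene that rose, Itgax, which is CD11c, was at 0.25 ± 0.354 CPM with SCF, 8.83 ± 1.77 CPM with 1 ng/mL TGF-β and 11.8 ± 6.7 CPM with 10 ng/mL (adjusted p = 0.00615 and 0.00108), and at 17.8 and 38.9 CPM with TGF-β alone. The call of Itgax at 1 ng/mL was lost with DESeq2 (adjusted p = 0.0509) and without the SCF library numbered 2 (0.0546). Of 7 tested antigen presentation genes, 0 rose, and 2 fell at the lower and 3 at the higher dose (4.64% and 8.37% of all genes), among them H2-D1 (-0.66 ± 0.12 and -0.81 ± 0.12, adjusted p = 0.00299 and 0.00034).

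Summed dendritic cell markers, 84.0% of which was Itgax, were at 1.26 to 41.2 CPM, highest in the 2 libraries with TGF-β alone in which Cx3cr1 was also highest, while the defining genes Xcr1, Ccr7, Siglech and Batf3 had 0 counts throughout. Monocyte markers summed to 556.6 to 1079.0 CPM, 75.8% of it F13a1, the A chain of coagulation factor XIII, which was at 728.8 ± 179 CPM in IL-3 and 727.1 ± 245 CPM with SCF and was not called in any of the 6 contrasts. Spn, the leukocyte sialoglycoprotein CD43, was at 157.6 ± 11.6 and 168.5 ± 16.7 CPM in these groups. Among the low ones, Plac8 had 0 counts in both SCF libraries and 12.1 ± 0.476 and 20.8 ± 7.19 CPM with the 2 doses of TGF-β added (adjusted p = 0.000298 and 2.02e-05, edgeR), while Cd14, Ly6c2 and Ccr2 did not pass the filter and had 15, 9 and 19 counts in all. Neutrophil, lymphocyte and fibroblast markers summed to at most 6.79, 12.5 and 3.88 CPM and eosinophil markers to at most 32.6 CPM. Basophil markers, some of which mast cells also express, summed to 568.0 to 2492.0 CPM, and erythroid and platelet markers to 1325.0 to 1848.0 CPM, 99.3% of it Itga2b. The macrophage identity sum was 26.7 and 28.0 CPM in IL-3 and 20.2 and 25.5 CPM with SCF, where Cd68, Clec10a and Pira2 were higher. The part of any other cell type in the levels of the 5 genes was not tested.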

How the data were processed

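SmartSeq2 cDNA libraries were sequenced as paired reads of 38 bases, per the labels' protocols. The authors deposited raw read counts for each gene; the submitters' processing notes name STAR, HTSeq and DESeq2 with GRCm38 (mm10). No source used here gives tool versions or the annotation. The 5 rows that named no gene were left out, and no column was unused. Of all counted reads or alignments, 16.4% to 26.6% were assigned to genes (median 1708116 counts per library), 37.2% to 55.6% lacked a unique alignment, 26.0% to 33.6% lay outside features and 2.05% to 2.85% were ambiguous.

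edgeR 4.0.16 under R 4.3.3 fitted the counts (filterByExpr, TMM, 1 mean per group over all 10 libraries, quasi-likelihood F tests, Benjamini-Hochberg adjustment over the 11247 genes kept, called under 0.05). The fit left 4 residual degrees of freedom, with a common coefficient of biological variation of 0.126; single libraries of TGF-β alone are assumed to vary like the other groups. The approximate SE is the absolute log2 fold change divided by the square root of its F. With 3 counts or fewer in a group, a pooled count ratio with a 95% interval, or a bound over 3 counts, replaces the fitted value. The pipeline was tested on simulated data.

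The 5 genes and the 18 gene lists (253 symbols, 9 not matched) were chosen with earlier results of these data known. Named besides them are called list members (up to 4 per list and contrast by size), paralogs, neighbours, marker genes, signalling partners, and per gene the 3 highest Pearson r of log2 CPM (prior count 2, at least 20 CPM in a group); some genes under these rules are not reported here. Alternatives were DESeq2 size factors, DESeq2 1.42.0, no filter, only the groups compared, a replicate block and each library left out.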

Additional observations from a re-analysis of the deposited data

How the results depend on the processing

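Leaving out 1 library at a time turned the direction of small differences. Cd68 with 1 ng/mL TGF-β against SCF became 0.11 or 0.30 (without the SCF library numbered 2 or the SCF with 1 ng/mL library numbered 1; range -0.52 to 0.30), and with 10 ng/mL 0.11 or 0.36 (range -0.70 to 0.36). Between doses, Cd68 became 0.43 or 0.45 (range -0.62 to 0.45), Clec10a 0.0939 (range -1.26 to 0.0939) and Pira2 0.29 (range -0.84 to 0.29). Cx3cr1 with 1 ng/mL became -0.0555 (range -0.0555 to 1.11) and Lyz2 with SCF against IL-3 0.024 (range -0.43 to 0.024). The other ranges were 3.53 to 5.15 (Cd68, SCF against IL-3), 0.52 to 2.13 (Cd68, TGF-β alone), -4.23 to -2.87 (Clec10a, 1 ng/mL), -2.32 to -1.15 (Cx3cr1, SCF), 0.33 to 1.496 (Cx3cr1, 10 ng/mL), -3.10 to -0.94 (Lyz2, 1 ng/mL), -1.90 to -0.68 (Lyz2, TGF-β alone), -2.59 to -0.44 (Lyz2, between doses), -2.25 to -0.99 (Lyz2, both factors against TGF-β alone) and -2.53 to -1.40 (Pira2, 1 ng/mL). Bounds for Clec10a ranged from 2.46 to 6.34 (TGF-β alone) and 1.35 to 3.14 (both factors against it), and Pira2 ratios from 6.64 to 14.1 there. No ratio could be given for Pira2 without the 10 ng/mL library of TGF-β alone, where no count remained.

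Over all genes, 1031 were called for SCF against IL-3 (439 with DESeq2; 237 to 1055 leaving out a library), 522 with 1 ng/mL TGF-β (267; 252 to 540), 941 with 10 ng/mL (437; 447 to 952), 2 between doses (0; 0 to 5), 391 for TGF-β alone (223; 143 to 442) and 2780 for SCF with TGF-β against it (1508; 1278 to 2799). Without the filter 8 were called between doses and 601 for TGF-β alone, and with only the groups compared 0 (258 at an unadjusted p under 0.05) and 712. DESeq2 had 46 at an unadjusted p under 0.05 between doses.

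Deviations of libraries with the same number correlated at 0.197 to 0.231 among the 3 groups with SCF and at -0.00334 to 0.0215 between these and IL-3, so the numbers were not taken to pair the samples. With the number as a replicate block, more genes were called in every contrast. They were 1483 for SCF against IL-3, 859 with 1 ng/mL and 1354 with 10 ng/mL. Between doses 5 were called, for TGF-β alone 718, and for SCF with TGF-β against it 3282. In that fit Cx3cr1 and Lyz2 between doses had unadjusted p of 0.0383 and 0.0367 (edgeR). Thus 2 of the 5 genes were under 0.05, against 1 without the block, with 0 of the 5 called. The causes of these changes were not tested. The depth leaves Pira2 in IL-3 and Lyz2 with SCF and 10 ng/mL TGF-β at the level of 3 counts.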
